A study of Sus scrofa with 6 samples.

Results

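A set of 9 transcription factor genes linked to the GABAergic (inhibitory) fate was followed through porcine midbrain-like organoids (pMLOs): DLX1, DLX2, DLX5, DLX6, GATA2, GATA3, TAL1, SIX3 and LHX9. They were taken by gene symbol, and all 9 were among the 30477 genes of the deposited tables. The organoids were grown from a single line of porcine embryonic stem cells, IVF_1_ pESC_FIW, derived from in vitro fertilised embryos, so no other genetic background is represented. All of them received SMAD inhibition (SB431542 and Noggin), the SHH-C24II form of sonic hedgehog and the GSK3 inhibitor CHIR99021, followed by FGF8 and then FGF8 with BDNF and ascorbic acid. The later organoids were also embedded in Matrigel and moved, on an orbital shaker, to a terminal medium of BDNF, GDNF, ascorbic acid, db-cAMP and DAPT without FGF8. The organoids were dissociated for single-cell profiling after 11, 28 or 45 days (D11, D28, D45), and each time point has a library A and a library B, described by the study as biological duplicates. By the study's methods the embedding came after D11, so in every comparison with D11 time, medium and embedding cannot be told apart, whereas D28 and D45 shared them. No library was left untreated.

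DLX genes encode homeodomain proteins that drive the GABAergic fate in the ventral forebrain, where DLX1 and DLX2 act ahead of DLX5 and DLX6 and switch on the enzymes of GABA synthesis. In the midbrain and the rostral hindbrain, the same fate is set instead by the zinc finger factors GATA2 and GATA3 together with the basic helix-loop-helix factor TAL1. SIX3 is a homeobox gene of the anterior forebrain and eye field, also found in developing striatal neurons, and LHX9 is a LIM homeobox gene of excitatory and relay neurons in the diencephalon and the pallium. The DLX and GATA programmes are thus alternative ways to the same transmitter in different brain regions.

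GABAergic marker cells were defined as cells with at least 1 unique molecular identifier (UMI, which counts a captured mRNA molecule once) of at least 2 of the 3 genes GAD1, GAD2 and SLC32A1, which encode the enzymes that make GABA and its vesicular transporter. Between 13870 and 21553 cells per library passed the limits on quality, with a median of 2300.5 to 10757 UMIs per cell. The 6 libraries held 12 and 19 GABAergic marker cells on D11 (A, B), 24 and 508 on D28, then 1598 and 1058 on D45. Their median depth lay between 6738 and 9465 UMIs, and 75 to 100% of them also carried at least 2 of the neuronal genes STMN2, DCX and ELAVL3. D28 A stood apart from D28 B. It held 0.168% GABAergic marker cells against 3.66%, while cells with at least 2 of the fibroblast genes LUM, DCN and COL3A1 made up 15.9% of it against 1.76%. Tests that compare D28, or D28 and D45 together, are therefore given without it as well. Although the label of every library reads midbrain dopaminergic neurons, at most 1.57% of the cells in any library carried 2 of the dopaminergic genes TH, SLC18A2 and SLC6A3. Any pair of libraries shared 54 to 111 barcode sequences.

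Of the 9 genes, the DLX genes lie in pairs. On Sscrofa11.1, DLX1 (chr15:78186667-78191788, plus strand) and DLX2 (chr15:78200696-78204264, minus strand) face each other across 8907 bases, and DLX6 (chr9:76623489-76630296, plus strand) and DLX5 (chr9:76639915-76643689, minus strand) across 9618 bases. GATA2 (chr13:71981139-71997626), GATA3 (chr10:63367684-63397977), TAL1 (chr6:164282242-164297636), SIX3 (chr3:95521330-95527004) and LHX9 (chr10:20742323-20764006) lie apart from them. The 250 bases before the annotated start of each DLX gene (RefSeq annotation, Sscrofa11.1) were searched on both strands for TAATTA, a core of homeodomain binding sites, and for the GATA sequences AGATAA and TGATAA. None of the DLX windows held any of these motifs. AGATAA was found in 8.08% of the 19556 windows of this length in the annotation, TGATAA in 6.23% and TAATTA in 3.73%. Shown is the window of DLX5 (chr9:76643690-76643939, minus strand), in lower case throughout because it held no motif, since DLX5 was the DLX gene most often detected in GABAergic marker cells on D28 and D45.
DLX5: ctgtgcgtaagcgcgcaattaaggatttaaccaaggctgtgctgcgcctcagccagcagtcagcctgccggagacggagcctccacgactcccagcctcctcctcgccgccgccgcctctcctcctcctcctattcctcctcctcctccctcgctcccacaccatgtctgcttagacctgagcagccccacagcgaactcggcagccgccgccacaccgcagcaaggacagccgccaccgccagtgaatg

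In the organoids as a whole, DLX1, DLX5, DLX6, GATA3 and LHX9 were close to absent on D11 and present from D28, whereas SIX3 was highest on D45. DLX2 was seen in D28 B and on D45, and D28 A held 3 UMIs of it, as did D11 A. Levels are given in CPM, the UMIs of a gene per 1000000 UMIs of all kept cells of a library. DLX1 was at 0.209 and 0.372 CPM on D11, 1.78 and 19.5 on D28, then 35.2 and 24.6 on D45 (A and B). DLX5 was at 0.152 and 0.10, then 1.43 and 19.1, then 28.4 and 22.6 CPM. Both D28 libraries lay above both D11 libraries, but D28 A stayed far below D28 B for each of the DLX genes. DLX6 was at 0.0316 and 0.0444, then 1.36 and 5.96, then 9.23 and 5.84 CPM, and DLX2, the gene with the fewest UMIs of the family, at 0.0190 and 0.0111, then 0.0281 and 1.26, then 1.83 and 1.41 CPM.

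The GATA genes followed another course. GATA3 was at 0.423 and 0.633 CPM on D11, at 5.87 and 27.0 CPM on D28 and at 2.65 and 4.67 CPM on D45, so that both D45 libraries lay below both D28 libraries. GATA2 was at 0.158 and 0.172, then 0.421 and 1.30, then 0.853 and 0.520 CPM, with D28 and D45 overlapping. TAL1 was near the limit of detection throughout, with 4 and 7 UMIs in the D11 libraries, 2 and 6 in those of D28 and 9 and 2 in those of D45, against at least 106805311 UMIs in every library. SIX3 was at 3.72 and 3.26 CPM on D11, 0.524 and 8.12 on D28, then 65.4 and 48.0 on D45, the D28 libraries falling on either side of D11. LHX9 was at 0.202 and 0.239, then 5.15 and 20.4, then 26.5 and 9.54 CPM, and its D28 and D45 libraries overlapped.

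**Figure D1:**
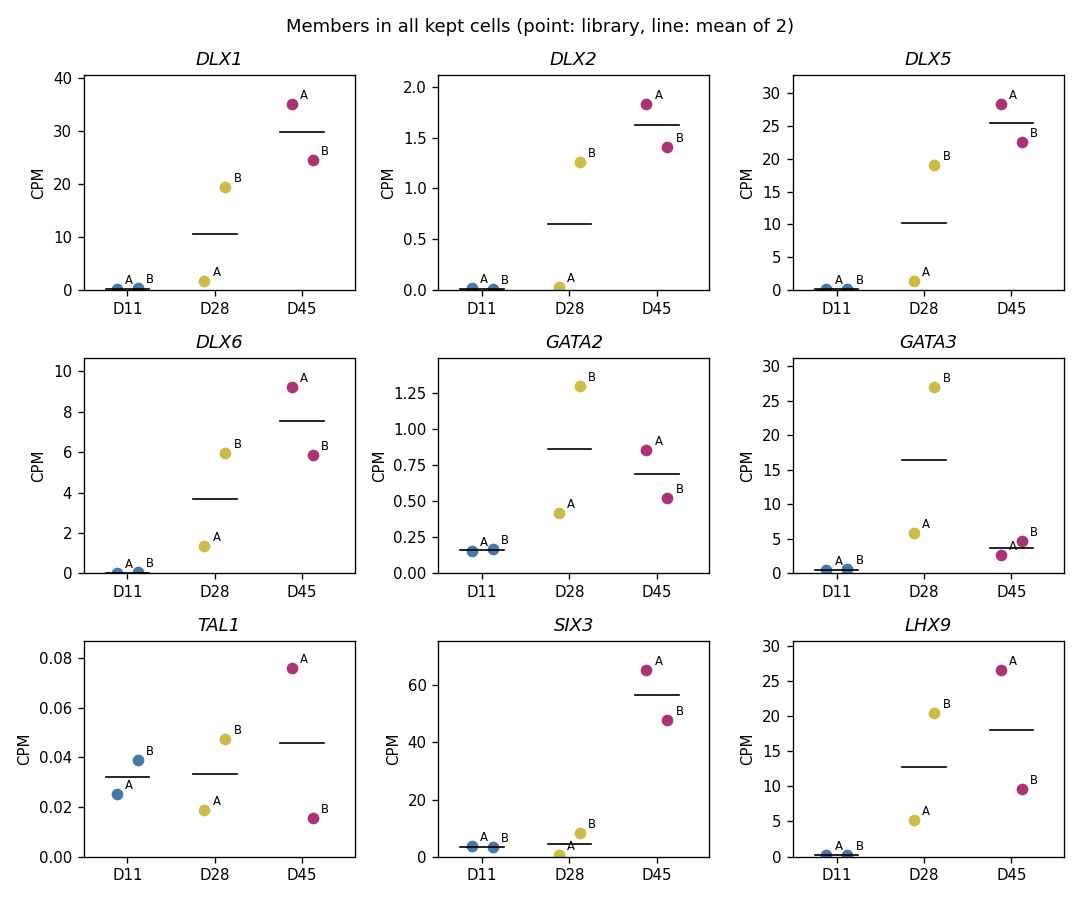
Level of each gene in all kept cells, in CPM (linear axes from 0, a scale per gene) on D11, D28 and D45; each point is a library (A or B) and the line is the mean of the 2. DLX1 goes from 0.209 and 0.372 CPM on D11 to 35.2 and 24.6 on D45, GATA3 peaks at 27.0 CPM in D28 B, and TAL1 never exceeds 0.0760 CPM.

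The libraries of the 3 days were compared with edgeR's quasi-likelihood test on the summed UMI counts of each library, with Benjamini-Hochberg adjustment over all genes tested and a threshold of 0.05. TAL1 had too few UMIs to be tested, which left 8 of the 9 genes. Between D11 and D28, 6 of the 8 rose and none fell, where 23.1% of all 22192 genes tested changed, 12.5% upward. The log2 fold changes were 4.82 ± 1.01 (SE) for DLX1, 5.99 ± 1.13 for DLX5 and 6.22 ± 0.78 for DLX6, with edgeR adjusted p-values of 0.0165, 0.0118 and 0.00277. GATA3 rose by 4.62 ± 0.72 on the log2 scale, LHX9 by 5.52 ± 0.77 and GATA2 by 2.07 ± 0.52, with edgeR adjusted p-values of 0.00593, 0.004 and 0.0309. DLX2 (log2 fold change 5.02, edgeR adjusted p 0.0514) and SIX3 (log2 fold change -0.05, edgeR adjusted p 0.974) did not pass. Without D28 A all 8 passed, including SIX3 with a log2 fold change of 0.85 (edgeR adjusted p 0.00947), and 31.8% of all genes did. Without D11 A only DLX6 and LHX9 passed, and without D11 B these 2 and GATA3, where 4.84 and 5.4% of all genes did. Without D28 B the 6 genes still rose but by less, with log2 fold changes of 2.45 for DLX1, 3.37 for DLX5, 4.97 for DLX6, 3.32 for GATA3, 4.39 for LHX9 and 1.20 for GATA2, and SIX3 fell (-2.88, edgeR adjusted p 5.38e-05), where 46.1% of all genes passed. In such sums over whole organoids, more cells that express a gene and more RNA per cell cannot be told apart.

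Between D11 and D45, all 8 tested genes rose, where 34.6% of genes changed, 17.3% upward. The largest log2 fold changes were those of DLX5 (7.25 ± 1.18, edgeR adjusted p 0.0043) and DLX6 (7.17 ± 0.80, 0.00102), and the smallest those of GATA3 (2.39 ± 0.66, 0.0299) and GATA2 (1.63 ± 0.52, 0.0482). DLX1 (6.25), DLX2 (6.28), LHX9 (5.92) and SIX3 (3.61 ± 0.96, edgeR adjusted p 0.0262) lay between them. When either D11 library or either D45 library was left out, DLX1, DLX5, DLX6 and LHX9 still passed, and DLX2, GATA2, GATA3 and SIX3 did not, where 12.2 to 16.6% of all genes passed. Between D28 and D45 none of the 8 passed, where 9.4% of genes changed, 4.47% upward and 4.93% downward. An unadjusted edgeR p under 0.05 was held by 6957 of the 22192 genes tested and by 2 of these 8, a smaller share. These 2 were GATA3, lower on D45 (log2 fold change -2.23 ± 0.64, edgeR adjusted p 0.0703), and SIX3, higher (3.66 ± 0.96, edgeR adjusted p 0.059). DESeq2 called 19.6% of all genes between these days. DESeq2 called these 2 genes and so did edgeR without D28 A, with log2 fold changes of -2.85 and 2.82 (edgeR adjusted p 0.0013 and 0.000208), where 18.2% of all genes passed. Without D28 B, by contrast, 6 of the 8 passed, namely the 4 DLX genes, SIX3 and LHX9, but so did 43.7% of all genes, so that the comparison of these days turned on which D28 library was used.

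Genes of the wider programmes moved in both directions between D11 and D45, when 17.3% of all genes rose and 17.4% fell. Of 17 tested genes that act with or beside the DLX factors, such as ISL1 and LHX6, 6 rose and 3 fell. Of 12 tested partners of the GATA factors, such as the cofactor ZFPM2, 3 rose and 2 fell, a share near that of all genes. The median log2 fold change was -0.48 in the first list and 0.47 in the second, and -0.01 over all 22192 genes. Without D28 A, which enters this fit through the shared estimate of spread, 6 of 18 genes of the first list rose and 8 fell, and 6 of 13 of the second rose and 2 fell, where 53.4% of all genes passed in place of 34.6%.

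Within the GABAergic marker cells, the factor genes exchanged places between D11 and the later days. GATA3 was at 282.9 and 261.6 CPM on D11, 46.8 and 34.7 on D28 (the D28 A value coming from 10 UMIs of a single cell), and 3.08 and 2.47 on D45. GATA2 was at 40.4 and 55.3 CPM on D11, 0 and 2.30 on D28, then 1.07 and 0.215 on D45. TAL1 was at 32.3 and 35.2 CPM on D11, from 4 and 7 UMIs, and no later library held more than 3 UMIs in these cells. For all 3 genes every D11 library lay above every later library. The D11 values rest on 12 and 19 cells, in which a count of 3 UMIs corresponds to 24.3 and 15.1 CPM. GATA3 was detected in 66.7 and 68.4% of these cells on D11 (exact 95% binomial intervals 34.9 to 90.1% and 43.5 to 87.4%), in 4.17 and 5.12% on D28, then in 1.5 and 0.756% on D45. These intervals cover counting error only.

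The DLX genes went the other way. DLX1 was at 40.4 and 15.1 CPM in the GABAergic marker cells of D11, 74.8 and 274.9 on D28, then 165.2 and 210.2 on D45. DLX5 was at 105.1 and 50.3, then 308.5 and 326.3, then 169.8 and 216.3 CPM. DLX6 was at 16.2 and 15.1, then 187 and 98.3, then 49.9 and 51.8 CPM. For these 3 genes the later libraries lay above those of D11, and DLX5 and DLX6 were highest on D28. DLX5 was found in 16.7 and 10.5% of the cells on D11, 62.5 and 69.3% on D28, then 48.6 and 59.1% on D45. DLX2 was not seen in the D11 cells and reached 4.68 and 17.6 CPM on D28 and 8.98 and 11.8 on D45, the D28 A value resting on 1 UMI.

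SIX3 was uneven between the libraries of D11 (16.2 and 115.7 CPM) and of D28 (0 and 27.2 CPM), and even on D45, with 162.7 and 169.5 CPM and detection in 50.4 and 49.3% of the GABAergic marker cells. LHX9 had no UMI in these cells on D11 or in D28 A, and stayed low afterwards, at 7.74, 12 and 7.85 CPM in D28 B, D45 A and D45 B, where 3.35 to 4.88% of the cells held it.

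**Figure D2:**
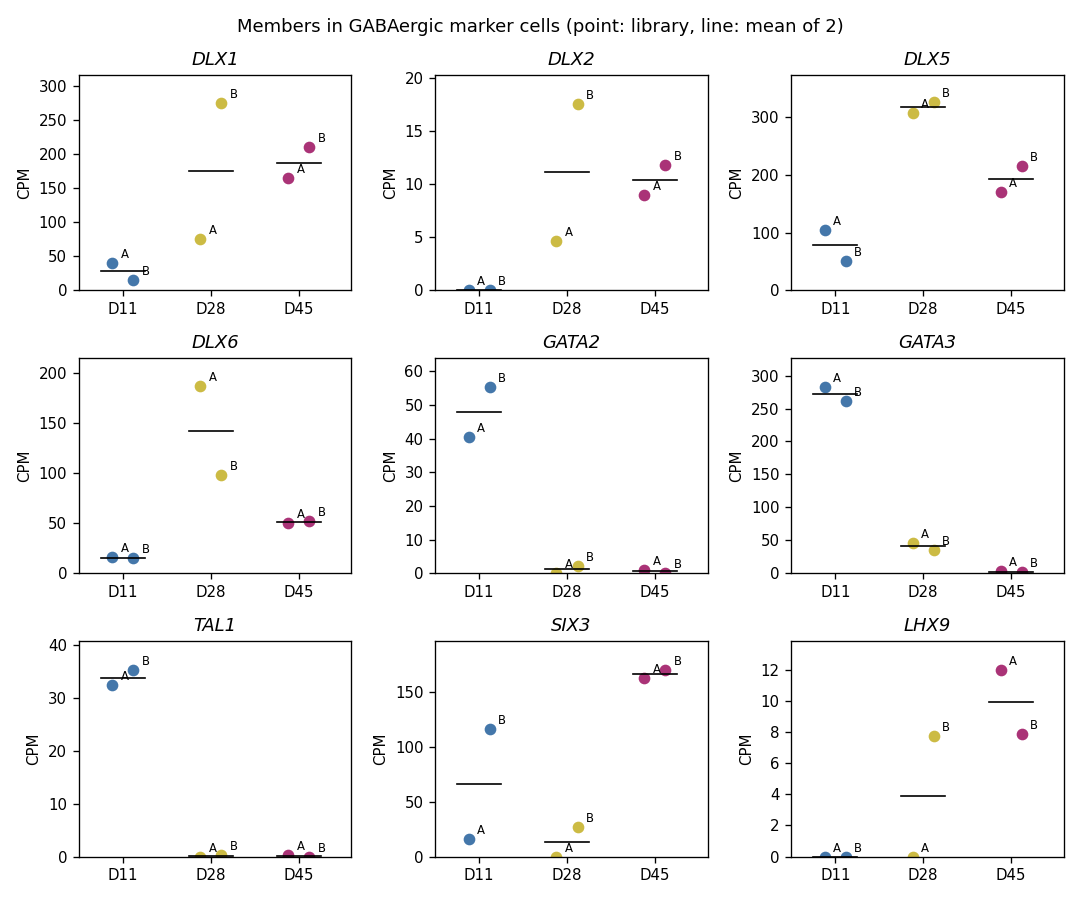
Level of each gene in GABAergic marker cells, in CPM of these cells (linear axes from 0, a scale per gene); each point is a library (A or B) and the line is the mean of the 2. GATA3 falls from 282.9 and 261.6 CPM on D11 to 3.08 and 2.47 on D45, while DLX1 is at 40.4 and 15.1 CPM on D11 and 165.2 and 210.2 on D45; the D11 points come from 12 and 19 cells.

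With the D11 sums admitted at 10 cells or more, 3 of the 9 genes rose and 3 fell from D11 to D28 in the GABAergic marker cells, where 1.15% of the 12846 genes tested changed, 0.545% upward and 0.607% downward. DLX1 (log2 fold change 2.87 ± 0.60, edgeR adjusted p 0.00921), DLX5 (2.10 ± 0.43, 0.00867) and DLX6 (3.03 ± 0.61, 0.00753) rose. DLX1 did not pass without D28 B (log2 fold change 1.64, edgeR adjusted p 0.126), nor any of the 3 without D11 B. GATA3 (log2 fold change -2.93 ± 0.37, edgeR adjusted p 4.65e-05), GATA2 (-4.61 ± 0.86, 0.00359) and TAL1 (-7.35 ± 1.23, 0.00128) fell. GATA2 and TAL1 passed the filter on low counts only through their D11 sums, which left little but a fall to be called for them. The fitted value of TAL1 rests on 1 UMI in the D28 cells. From D11 to D45, DLX1 rose (log2 fold change 2.81 ± 0.59, edgeR adjusted p 0.00513), where 3.46% of genes changed, 1.85% upward and 1.6% downward. GATA3 (log2 fold change -6.66 ± 0.39, edgeR adjusted p 1.73e-11), GATA2 (-6.16 ± 0.81, 2.6e-05) and TAL1 (-7.95 ± 1.04, 2.6e-05) fell. The same limit of the filter holds for GATA2 and TAL1 here, and the D45 cells held 3 and 0 UMIs of TAL1. DLX5 (log2 fold change 1.31, edgeR adjusted p 0.0938), DLX6 (1.62, 0.187) and SIX3 (1.07, 0.281) did not pass on D45, nor did SIX3 on D28 (-1.81, 0.179). SIX3 was past the threshold on D28, and lower, in 7 of 11 alternatives, but its log2 fold change was 0.49 without D11 B (edgeR adjusted p 0.904). DLX2 and LHX9, with no UMI on D11, passed in neither comparison. Without D28 A, 7 genes passed on each of the later days, DLX5, DLX6 and SIX3 among them, SIX3 lower on D28 (log2 fold change -1.5) and higher on D45 (1.11) than on D11, where 3.18 and 8.22% of all genes passed. Without D11 B, the library with 19 cells, only GATA3 passed on D28, and without D45 A or D45 B only DLX1 and GATA3 passed on D45. The fall of GATA3 passed under all 11 alternatives of both comparisons. GATA2 lost its call on D28 in 4 of 11 and on D45 in 2 of 11, and DLX1 lost it on D45 in 1 of 11. TAL1 could be fitted in 5 alternatives of each comparison.

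From D28 to D45, 2 genes fell and 1 rose in the GABAergic marker cells, where 3.53% of 14380 genes changed, 2.13% upward and 1.4% downward. GATA3 went from 40.7 ± 8.5 to 2.78 ± 0.43 CPM (SD, n = 2 libraries per day), with a log2 fold change of -3.75 ± 0.41 (edgeR adjusted p 2.86e-11). The D28 A part of that level is 1 cell, which had a doublet call. SIX3 went from 13.6 ± 19.2 to 166.1 ± 4.84 CPM, with a log2 fold change of 2.88 ± 0.40 (edgeR adjusted p 7.37e-08). DLX6 went from 142.7 ± 62.7 to 50.9 ± 1.36 CPM (log2 fold change -1.38 ± 0.34, edgeR adjusted p 0.00686). DLX1, DLX2, DLX5 and LHX9 did not pass, with log2 fold changes of -0.05, -0.61, -0.75 and 0.51 (edgeR adjusted p 0.972, 0.486, 0.313 and 0.648), and GATA2 and TAL1 had too few UMIs. Without D28 A, DLX5 passed as well (log2 fold change -0.76, edgeR adjusted p 0.0329), and GATA3, SIX3 and DLX6 still did (-3.63, 2.6 and -0.96). SIX3 did not pass with DESeq2 (adjusted p 0.686) and DLX6 failed under 5 of 11 alternatives.

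Other genes of these cells that changed from D28 to D45 included EBF1, a factor of early striatal and midbrain neurons (log2 fold change -3.28, edgeR adjusted p 1.64e-08), LHX6, a DLX target in cortical interneurons (-1.51, 0.0113), and LHX1, a LIM factor of brainstem inhibitory neurons (-2.60, 7.94e-06), all lower on D45. MEIS2, a striatal homeobox gene, was higher (2.22, edgeR adjusted p 5.17e-05), as was the neuropeptide SST (3.27, 1.96e-07), while the opioid peptide precursor PENK was lower (-4.33, 7.7e-12). None of the 9 tested partners of the GATA factors passed. Of 14 tested DLX partners 1 rose and 2 fell, where 2.13% of all genes rose and 1.4% fell, with a median log2 fold change of -0.74 against 0.05 over all genes. Without D28 A, EBF1 (log2 fold change -1.11) and PENK (-1.98) still passed but changed far less, and LHX6 (-1.63), LHX1 (-2.15), MEIS2 (1.89) and SST (2.82) passed too. The counts were then 1 higher and 6 lower of 15 DLX partners, and none higher and 3 lower of 9 GATA partners, where 7.34% of all genes passed in place of 3.53%.

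GABAergic marker cells were then set against the other neuronal cells of the same library, those with at least 2 of STMN2, DCX and ELAVL3 and no UMI of the 3 GABA genes. In the 4 libraries with at least 20 cells of both kinds (both D28 and both D45 libraries), the DLX genes set the GABAergic cells apart, and the GATA genes did not pass the test. DLX5 was at 308.5, 326.3, 169.8 and 216.3 CPM in the GABAergic cells and 0.470, 2.68, 2.90 and 3.43 CPM in the other neurons. DLX1 was at 74.8, 274.9, 165.2 and 210.2 CPM against 0.776, 8.25, 7.20 and 6.28 CPM. Every GABAergic value lay above every value of the other neurons. GATA3 was at 46.8, 34.7, 3.08 and 2.47 CPM in the GABAergic cells and 5.17, 35.3, 1.64 and 4.60 CPM in the other neurons. It was higher in D28 A, from 1 cell with a doublet call, and in D45 A, and lower in D28 B and D45 B. SIX3 was at 0, 27.2, 162.7 and 169.5 CPM against 0.423, 8.95, 53.6 and 44.2 CPM, higher in 3 of 4 libraries. LHX9 ran the opposite way, at 0, 7.74, 12 and 7.85 CPM against 9.17, 34.3, 40.0 and 14.1 CPM, lower in 4 of 4.

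Of 8 tested genes, 5 were higher and 1 was lower in the GABAergic cells by edgeR with the library as a covariate, where 32.3% of 18902 genes differed, 11.7% upward and 20.5% downward. The log2 fold changes were 6.56 ± 0.40 for DLX5, 6.09 ± 0.44 for DLX6, 4.92 ± 0.21 for DLX1 and 4.74 ± 0.31 for DLX2, with edgeR adjusted p-values of 3.19e-06, 9.14e-06, 5.62e-07 and 4.48e-06. SIX3 was higher by 1.65 ± 0.13 (edgeR adjusted p 1.23e-05), and LHX9 was lower (log2 fold change -1.65 ± 0.22, edgeR adjusted p 0.000331). GATA3 (log2 fold change 0.20 ± 0.38, edgeR adjusted p 0.733) and GATA2 (0.49 ± 0.37, 0.346) did not pass. The same 6 genes passed without D28 A.

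Among the genes beside the DLX factors, 8 of 16 tested were higher in the GABAergic cells and 3 lower. LHX6 (log2 fold change 5.67), the LIM factor ISL1 of striatal and hypothalamic neurons (3.34), and NR2F2 (0.88) were among the higher. Of 13 tested excitatory genes none was higher and 11 were lower, such as the vesicular glutamate transporter SLC17A6 (log2 fold change -2.50) and NEUROD1 (-3.55). The neuropeptide GAL was higher by 5.22 on the log2 scale. Of 9 tested GATA partners 2 were higher, with ZFPM2 at 0.74, and 4 were lower, with the ventral factor NKX6-1 at -1.58. These log2 fold changes all passed the edgeR test, with D28 A and without it. Without D28 A, 8 of 16 DLX partners were higher and 4 lower, 9 of 12 excitatory genes were lower, and 2 of 10 GATA partners were higher and 4 lower, where 34.4% of all genes passed.

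On D11 GATA3, DLX5 and DLX1 were higher in the GABAergic cells than in the other neurons, while DLX2 had no UMI in them. GATA3 stood at 282.9 and 261.6 CPM there and at 0.466 and 0.835 CPM in the other neurons of D11 A and B. DLX5 stood at 105.1 and 50.3 CPM, from 13 and 10 UMIs, and had no UMI in the other neurons. DLX1 stood at 40.4 and 15.1 CPM, from 5 and 3 UMIs, against 0.408 and 0.167 CPM. The cells with a DLX gene numbered 3 in each D11 library, of which 2 in D11 A and 1 in D11 B had doublet calls, so 1 and 2 remained without them. All 11 TAL1 UMIs of D11 lay in the GABAergic cells, but 1 of 8 on D28 and 3 of 11 on D45. Likewise 52.2 and 45.6% of all GATA3 UMIs lay in GABAergic cells on D11, but 1.60 and 4.88% on D28, then 14.7 and 3.88% on D45. Of the kept cells, GABAergic cells made up 0.0816 and 0.0882% on D11, 0.168 and 3.66% on D28, then 7.95 and 5.74% on D45. On D45 68.2 and 88.9% of the GATA3 UMIs lay in cells with none of the 3 GABA genes. Such cells were 15502 of 20094 and 15757 of 18425 kept cells. Of the DLX5 UMIs, 54.2 and 55.6% lay in GABAergic cells on D11, 43.1 and 64.9% on D28, then 75.4 and 70.3% on D45. The D11 shares rest on 67 and 114 UMIs of GATA3 and on 24 and 18 of DLX5.

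Whether the difference between GABAergic cells and other neurons changed with time was tested directly, in all 6 libraries and with the D11 sums admitted. From D11 to D28 it changed for 4 of the 9 genes, GATA2, GATA3, DLX5 and SIX3, where 2.59% of genes passed, 1.1% upward and 1.49% downward. From D11 to D45 it changed for these 4 and TAL1, where 3.59% passed, 1.68% upward and 1.92% downward. All of these fitted changes were downward, for GATA3 by -8.18 ± 0.51 and -8.58 ± 0.50 on the log2 scale (edgeR adjusted p 2.1e-23 and 1.99e-25). For DLX5 and TAL1 the other neurons of D11 held no UMI, so their fitted values are no measure of size. TAL1 also passed the filter on low counts only through its GABAergic sums of D11, which left little but a fall to be called for it. Within the GABAergic cells the level of DLX5 itself was higher on D28 and D45 than on D11, past the edgeR threshold on D28 only. For SIX3 the call rests on D11 B, without which the change was 0.22 and 0.35. Without D28 A the same 4 genes passed from D11 to D28, GATA3 at -8.46 (edgeR adjusted p 3.87e-84), where 2.98% of all genes did.

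**Figure D3:**
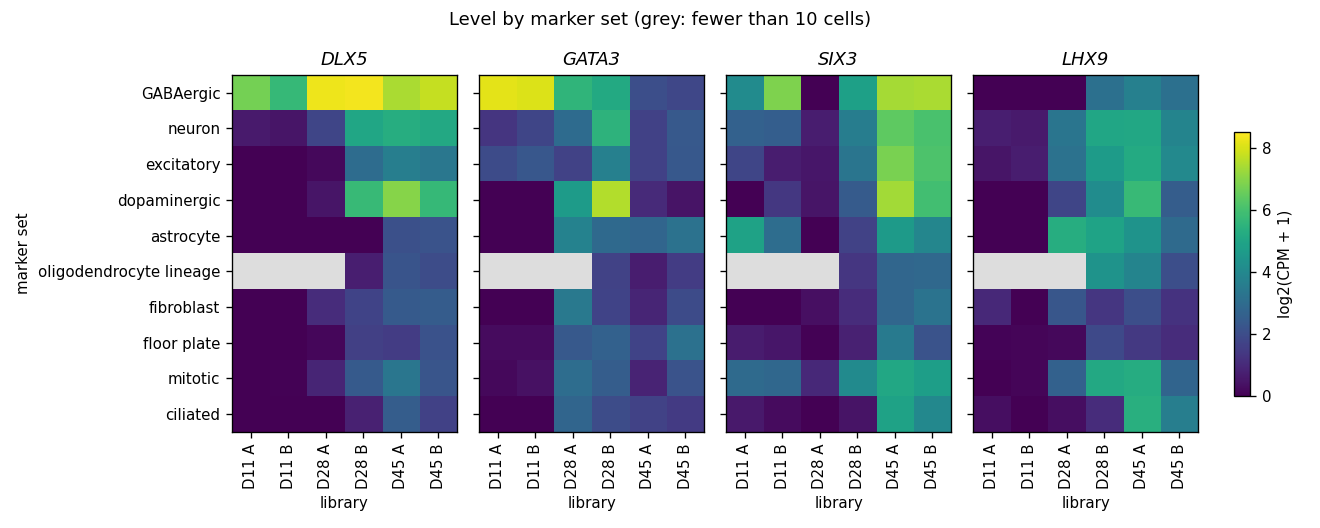
Level of DLX5, GATA3, SIX3 and LHX9 by marker set and library, as log2(CPM + 1) (colour scale); grey fields have fewer than 10 cells, and sets may share cells. GATA3 is highest in the GABAergic set on D11 and in the dopaminergic set of D28 B (182.6 CPM), DLX5 is highest in the GABAergic set of every library, and LHX9 has no UMI in the GABAergic set of D11 or D28 A.

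In the other marker sets, the 4 genes in that plot differed in where they were found. These sets share cells with the GABAergic set, on D45 A and B 130 of 1440 and 58 of 1606 excitatory, 38 of 86 and 48 of 240 dopaminergic, and 13 of 503 and 21 of 1525 fibroblast cells, and in D28 B 39 of 2574, 33 of 218 and 0 of 244. The part of the shared cells in the levels was not tested. DLX5 was at 6.98, 11.5 and 9.33 CPM in excitatory cells (SLC17A6 with the neuronal genes) of D28 B, D45 A and D45 B. It was at 2.24, 4.25 and 4.54 CPM in their fibroblast marker cells. That set was chosen to give a background level, but whether its cells express DLX5 themselves was not tested. In dopaminergic marker cells DLX5 was at 52.6, 121.9 and 50.3 CPM in these 3 libraries, in 14.7, 32.6 and 19.2% of the cells, and at 0.408 CPM, from 1 UMI, in D28 A. The fibroblast cells of D28 A held 1.11 CPM of DLX5 but 9.77 CPM of GATA3, above the 5.87 CPM of all kept cells, so that for GATA3 they give no background level there, and those of the 3 other late libraries 0.851 to 2.87 CPM of GATA3. DLX1, not plotted, was at 2.51 CPM or more in the fibroblast cells of each D28 library, against 1.78 CPM in all kept cells of D28 A. Of the D28 A cells with a DLX gene and no GABA gene, 60 of 135 (44.4%) carried the fibroblast markers, against 14 of 419 in D28 B. The source of these DLX UMIs was not tested. GATA3 reached 182.6 CPM in the dopaminergic marker cells of D28 B, in 18.8% of 218 cells, against 24.1 CPM in those of D28 A and 1.03 and 0.359 CPM on D45. SIX3 was at 110.3 and 69.4 CPM in excitatory cells and at 159.1 and 59.3 CPM in dopaminergic cells on D45. LHX9 was at 24.3, 35.9 and 15 CPM in excitatory cells of D28 B, D45 A and D45 B. In ciliated cells (2 of FOXJ1, RSPH1 and TEKT1) of D45 A it was at 40.6 CPM. Astrocyte marker cells (2 of AQP4, GFAP and GJA1) held 29.7 to 38.3 CPM of it on D28, where excitatory cells held 8.21 to 24.3, and 6.63 to 19.8 CPM on D45. Mitotic cells (2 of TOP2A, CENPF and UBE2C) held 5.24 to 34.2 CPM on D28 and 5.69 to 37.3 CPM on D45. DLX5 was detected in 3.98 and 3.08% of the fibroblast cells of D45, far below the 48.6 and 59.1% of GABAergic cells. GATA3 was detected in 1.19% of the fibroblast cells of D45 A (exact 95% interval 0.439 to 2.58%) and 2.10% of those of D45 B (1.44 to 2.95%), against 1.5% (0.965 to 2.23%) and 0.756% (0.327 to 1.48%) of the GABAergic cells. The median depth was 13547 and 13385 UMIs in fibroblast cells and 8708.5 and 7920 in GABAergic cells. The level of GATA3 was 3.08 CPM in the GABAergic cells of D45 A against 0.851 CPM in its fibroblast cells, and 2.47 against 2.87 CPM in D45 B, so the D45 libraries gave no common order of these sets.

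Each GABAergic marker cell was next sorted by whether it held at least 1 UMI of any DLX gene, of GATA2 or GATA3, of both or of neither. On D11 the GATA cells were the larger class, with 8 of 12 and 15 of 19 cells holding a GATA gene alone (66.7 and 79.0%) and 3 in each library a DLX gene alone. On D28, 19 of 24 and 404 of 508 cells held a DLX gene alone (79.2 and 79.5%). Doublet calls were made for 7 of these 19 cells of D28 A (36.8%) and for 20 of the 404 of D28 B (4.95%). On D45 1011 of 1598 and 828 of 1058 cells held a DLX gene alone (63.3 and 78.3%). GATA genes alone were found in 1 and 20 cells on D28 and in 22 and 6 on D45. Cells with neither made up 8.33 and 5.26%, then 16.7 and 14.8%, then 34.5 and 20.9%. The neither class of D28 B, D45 A and D45 B had the lowest median depth of the classes, 5378, 6219 and 4309 UMIs.

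**Figure D4:**
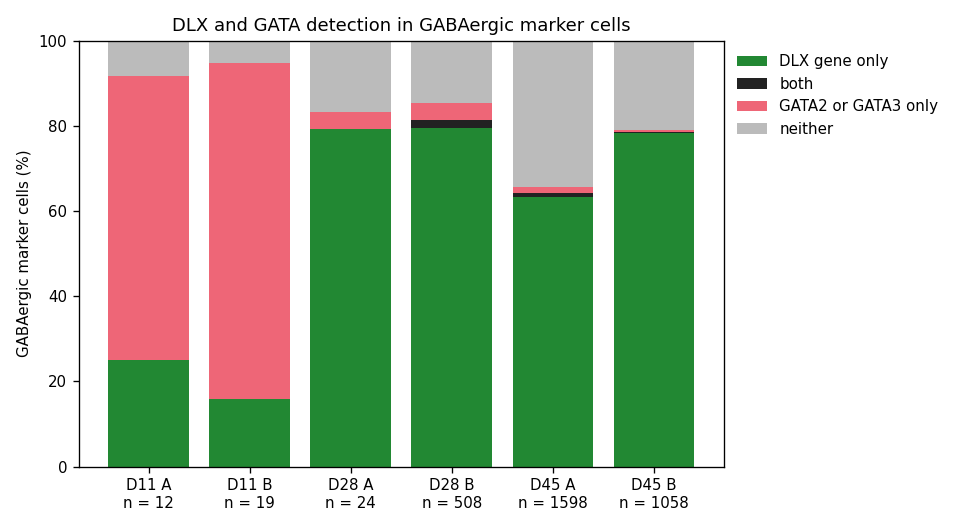
Share of GABAergic marker cells (percent, stacked to 100) that held a DLX gene only, both a DLX gene and GATA2 or GATA3, GATA2 or GATA3 only, or neither, in each library, with the number of cells. The class with GATA alone takes 66.7 and 79.0% on D11, and the class with DLX alone 63.3 to 79.5% in the 4 later libraries.

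Cells with both a DLX and a GATA gene were fewer than independent detection would give. Their expected number was summed over 10 bins of total UMIs per cell, so that it took account of deeper cells, in which every gene is seen more often. In D28 B, 9 cells held both where 23.1 were expected. In D45 A, 14 held both against 24.1, and in D45 B 3 against 7.63. The observed number was thus 0.389, 0.580 and 0.393 of the expected one, below 1 in 3 of 3 libraries. No cell held both in D11 A, D11 B or D28 A, where 0.5, 1.5 and 0.667 were expected, which was too few cells for a difference to be detectable. With 0.5 added to both numbers, the mean log2 ratio of the 3 libraries with at least 50 GABAergic cells was -1.10 ± 0.29 (SD, n = 3), and the 2-sided exact permutation test over libraries gave p = 0.25, the smallest that 3 libraries allow.

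The mean log2 ratio was lower under 2 settings and slightly higher under 2 others. With at least 2 UMIs of each side, 1 cell held both in each library, where 13.4, 6.30 and 3.03 were expected. The mean was then -2.21, but D45 B hardly moved, from -1.215 to -1.236. Cells thinned to 2000 UMIs gave -2.19 (SD 1.37), from 0, 1 and 0 cells with both where 6, 2.56 and 1.29 were expected. Cells with all 3 GABA genes gave -0.96 (SD 0.51), from log2 ratios of -1.07, -1.41 and -0.40 in D28 B, D45 A and D45 B. Cells with doublet calls removed gave -1.06 (SD 0.53), from -1.49, -0.47 (10 cells where 14.0 were expected) and -1.23. The exact permutation p remained 0.25 in each of these, its lower limit. Doublet calls, which mark droplets that may hold 2 cells, were made for 22.2, 28.6 and 33.3% of the cells with both, against 4.95, 9.89 and 10.7% of those with DLX alone, 5, 45.5 and 33.3% of those with GATA alone and 6.67, 18.7 and 22.2% of those with neither. The shares for cells with both rest on 2 of 9, 4 of 14 and 1 of 3 cells, and on D45 those with GATA alone were called as often or more often. The part of doublets in the remaining double detection was not tested further.

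**Figure D5:**
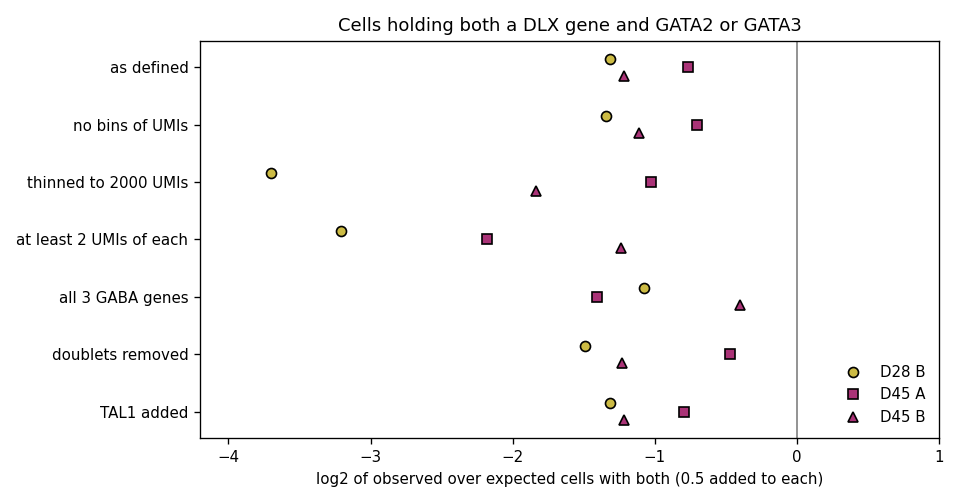
Cells with both a DLX gene and GATA2 or GATA3 among GABAergic marker cells, as log2 of observed over expected number with 0.5 added to each, under each setting (rows) in D28 B, D45 A and D45 B. All points lie below 0, the value for independent detection, and they are lowest in D28 B with thinned cells and with at least 2 UMIs of each.

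The DLX pairs examined in D28 B, D45 A and D45 B were found together 1.03 to 1.64 times the expected number, while GATA2 with GATA3 varied between libraries. The lowest was DLX1 with DLX6 in D45 B. Of the cells with DLX2 in these libraries, 87.8, 84.2 and 82.0% also held DLX1, the neighbouring gene, 1.28 to 1.64 times the expected number. Of those with DLX6, 87.6, 74.0 and 75.2% also held DLX5, 1.14 to 1.33 times the expected number. On D11 GATA2 and GATA3 shared 3 and 5 cells, 1.2 and 1 times the expected number. They shared 6 of the 9 GATA2 cells of D28 B where 0.471 were expected, but only 1 of 13 in D45 A and 1 of 2 in D45 B, where 0.288 and 0.0189 were. All 3 TAL1 cells of D11 A, 4 of 5 in D11 B, 1 of 1 in D28 B and 2 of 3 in D45 A held GATA3. The expected numbers were 3, 2.5, 0.0392 and 0.0688, so on D11 the overlap was 1 and 1.6 times the expected one. None of the TAL1 cells of these libraries held a DLX gene. Only 0, 0.5, 0.882 and 2.09 such cells were expected, too few for absence to be read from it. SIX3 and the DLX genes shared 1.06 to 1.08 times the expected cells, and SIX3 and the GATA genes 1.09, 0.739 and 0.397 times. No cell held both LHX9 and a GATA gene, where 0.925, 1.99 and 0.464 were expected, too few for absence to be read from it.

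What else distinguished the cells with DLX alone from those with GATA alone was tested where both classes had at least 20 cells, in D28 B (404 and 20 cells) and D45 A (1011 and 22). The DLX and GATA genes themselves chose the classes and are not tested here. Neither SIX3 (30.2 and 185.5 CPM in DLX cells, 11.9 and 178.3 in GATA cells, log2 fold change 0.35, edgeR adjusted p 0.845) nor LHX9 (8.73 and 12.3 CPM in DLX cells, no UMI in GATA cells, edgeR adjusted p 0.459) passed, where 1.2% of 12161 genes did, 0.354% higher in DLX cells and 0.847% lower. TAL1 had 0 UMIs in the DLX cells and 3 in the far fewer GATA cells. With 2 libraries this comparison is thin, and of the 22 GATA cells of D45 A 45.5% had doublet calls.

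In these libraries the genes of the anterior-posterior axis divided the classes. Of 16 position genes 7 had enough UMIs to be tested, of which 6 were higher in GATA cells and none in DLX cells. Whether they passed the filter on low counts through the GATA cells only was not examined. PAX5, a factor of the midbrain-hindbrain boundary, had a log2 difference (DLX minus GATA cells) of -4.48 (edgeR adjusted p 5.26e-07), and the midbrain factors EN1 and EN2 of -5.37 (2.41e-05) and -4.75 (0.000187). OTX1, a factor of the forebrain and midbrain, had -4.22 (edgeR adjusted p 0.000295). Of 13 tested DLX partners 5 were higher in DLX cells and 2 in GATA cells. ISL1 (log2 difference 4.57, edgeR adjusted p 0.000146), NKX2-1 of the ventral forebrain (3.68, 0.00785) and NR2F2 (2.49, 0.000224) were higher in DLX cells. GAL had 1820 UMIs in the DLX cells and 0 in the GATA cells, and the dopamine-synthesising enzyme TH was higher in DLX cells (3.34, edgeR adjusted p 0.00619). Among the GATA partners, NKX2-2 (log2 difference -2.97, edgeR adjusted p 0.00502) and ZFPM2 (-1.72, 0.00653) were higher in GATA cells and ST18 (1.70, 0.00555) in DLX cells. The median log2 difference was 2.03 over the tested DLX partners, -0.60 over the 7 tested GATA partners and -4.22 over the 7 tested position genes, against 0.08 over all genes tested. Outside the lists, the largest differences past the threshold were those of PAX6, ZIC1, CRABP1, ECEL1 and GALNT14, higher in DLX cells, and of ITLN2, UNCX, CRHBP, LMX1B and ASIC4, higher in GATA cells. Without the library as a covariate 14 genes passed in place of 146.

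Many GATA cells held no GABA gene at all. Cells with GATA2 or GATA3 and with neither a DLX nor a GABA gene numbered 37 and 41 in the D11 libraries. They numbered 182 and 481 in those of D28 and 164 and 290 in those of D45. Of the cells without a GABA gene, the bulk of every library, they made up 0.253 and 0.191%, then 1.30 and 3.89%, then 1.06 and 1.84%. The genes named here were chosen after their values were seen, so they are described without a test. In the 481 cells of D28 B with GATA and neither DLX nor GABA genes, TPH2, the enzyme of serotonin synthesis in neurons, was at 246.3 CPM, the serotonin transporter SLC6A4 at 102.2 CPM and the serotonergic factor FEV at 16.9 CPM. In the 409 cells of the same library with DLX alone, the values were 2.11, 1.41 and 0 CPM. In the corresponding GATA cells of D28 A, TPH2 was at 31.8 CPM, SLC6A4 at 7.86 CPM and FEV at 1.5 CPM, and 48.7% of all GATA cells without GABA genes carried the fibroblast markers there, against 1.22% in D28 B. Their part in this difference was not tested. On D45 TPH2 was at 5.83 and 58.1 CPM in these cells, and the binding protein CRHBP at 493.1 and 513.2 CPM. TPH2 was thus highest in D28 B and several times lower in the other library of that day.

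The level of each family across cell kinds was compared with that of all other genes as a description. Over 50 sums of a library and marker set with at least 50 cells, and among 11388 genes, the summed DLX genes followed most closely GAD1 (Pearson r 0.962 of log2(CPM + 1)), GAD2 (0.957), HMX2 (0.930), SLC32A1 (0.912) and NRIP2 (0.876). GAD1, GAD2 and SLC32A1 chose the GABAergic set. The summed GATA2 and GATA3 followed C9orf78 (0.767), C2orf49 (0.748), PRPH (0.743), GPS2 (0.733) and MON1A (0.733). The sums share libraries and in part cells, and genes are not independent, so these values carry no test.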

How the data were processed

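Single cells of pMLOs were sequenced by the authors in 6 libraries, 2 for each time point, with GEM-X 3' v4 reagents. Cell Ranger and the genome Sscrofa11.1 were used by the authors, and the deposited values are raw UMI counts by gene and cell barcode, without normalization. The submitters' processing notes also name Seurat 4.3.0. No columns of other samples were used.

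Of 104820 barcodes, 102940 with 200 to 7000 detected genes and at most 10% UMIs of the 37 mitochondrial genes were kept, with 106805311 to 180034791 UMIs per library. Marker sets were defined by 2 of 3 genes. Doublets were scored against simulated ones, called at a rate in proportion to the number of cells (5.55 to 8.62% per library), and removed only in an alternative. Counts were summed per library and cell set, at least 20 cells each, and tested with edgeR 4.0.16 (TMM, filterByExpr, quasi-likelihood, Benjamini-Hochberg, 0.05), DESeq2 1.42.0 being an alternative, in R 4.3.3. GABAergic cells of D11 numbered under 20, so the comparisons with D11 admitted 10 cells, a change made after seeing the data, as was the test of whether the difference to other neurons changed with time. The fits of whole organoids and of GABAergic cells over time used all libraries available. The procedure was tested on simulated data. Co-detection was tested by exact permutation over libraries (python 3.11.15, scipy 1.17.1).

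The 9 genes, the gene lists and the marker sets were chosen with earlier results of these data known. From each list, up to 4 genes past the threshold with the largest changes and libraries that did not overlap were named, or, where none passed, the 2 of highest level; some that met this rule are not reported here. Replicate letters did not pair the libraries. All libraries came from 1 cell line, so p-values refer to the spread between its libraries. edgeR estimates that spread partly from all genes together. The comparison of DLX with GATA cells and the tests with the few GABAergic cells of D11 lean on this shared estimate. Some list genes (such as LMO4, FOXN4, SOX1, PAX8, BHLHE22 and POMC) were not matched by symbol and not analysed here. The alternatives were DESeq2, its size factors, no filter on low counts, the replicate or library block, each library left out, doublets removed, all 3 GABA genes required and other minimum cell numbers.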

Additional observations from a re-analysis of the deposited data

Results flagged for a closer look

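The difference between GABAergic marker cells and the other neuronal cells of the same library changed with time for 5 genes, by a test of the change itself (edgeR, library as covariate, 1 class term per day, Benjamini-Hochberg adjustment). This test was added after the data were seen. It used all 6 libraries, 2.59% of 18839 genes passed between D11 and D28 and 3.59% between D11 and D45, and the D11 sums hold 12 and 19 GABAergic cells. The GATA genes led the change. For GATA3 the difference changed by -8.18 ± 0.51 (SE, log2) from D11 to D28 and by -8.58 ± 0.50 from D11 to D45, with edgeR adjusted p-values of 2.1e-23 and 1.99e-25. GATA3 was 282.9 and 261.6 CPM in GABAergic cells against 0.466 and 0.835 CPM in other neurons on D11, and 3.08 and 2.47 against 1.64 and 4.60 CPM on D45. For GATA2 the difference changed by -7.77 ± 0.84 and -7.28 ± 0.81 (edgeR adjusted p 1.33e-11 and 3.96e-11), from 40.4 and 55.3 against 0.233 and 0.111 CPM on D11. TAL1 passed from D11 to D45 alone, with a fitted value of -11.0 that rests on 11 UMIs in the D11 GABAergic cells and none in the other D11 neurons and is therefore no measure of size. It passed the filter on low counts only through those GABAergic cells, which left little but a fall to be called for it.

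DLX5 passed with fitted values of -6.48 and -8.15 (edgeR adjusted p 0.000425 and 1.01e-07), but its other neurons of D11 held no UMI, where the later ones held 20, 160, 152 and 200, so these values are no measure of size either. With doublets removed, which leaves D11 A 9 GABAergic cells and so takes it out of the test, DLX5 had fitted values of -5.48 and -7.03 and did not pass (edgeR adjusted p 0.661 and 0.221). From D11 to D28 it also did not pass without D11 A (adjusted p 0.33) or without D11 B (0.0983), so it passed in 7 of 10 alternatives there and in 9 of 10 from D11 to D45. For SIX3 the difference changed by -2.33 ± 0.48 and -2.25 ± 0.44 (edgeR adjusted p 0.000514 and 0.000175). On D11 SIX3 was at 16.2 and 115.7 CPM in GABAergic cells against 5.22 and 3.95 CPM in other neurons, and without D11 B the fitted change was 0.22 and 0.35, so the call rests on the 23 UMIs of that library. GATA3 passed in each of the 10 alternatives of both comparisons, and GATA2 in all but 1, without D28 B from D11 to D28 (adjusted p 0.0661).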

How the results depend on the processing

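Of 749 values of single genes under other settings, 645 kept their direction and their side of the threshold, 56 lost the call, 28 gained it and 20 changed sign. The number of the 9 genes called was the same or within 1.5 times except as follows. DESeq2 called 2 in whole organoids from D28 to D45 and 1 in GABAergic cells from D28 to D45, and 3 changes of the difference to other neurons from D11 to D45 passed with doublets removed. With 1 library left out, the number called in whole organoids was 2 to 8 from D11 to D28, 4 to 8 from D11 to D45 and 0 to 6 from D28 to D45. In GABAergic cells it was 1 to 7 from D11 to D28, 2 to 7 from D11 to D45 and 2 to 4 from D28 to D45, and against other neurons 6 to 6. The change of that difference was called for 2 to 4 genes from D11 to D28 and for 3 to 5 from D11 to D45. The cause was not tested. With 1 library left out, the ranges over all genes are given further below.

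Signs changed as follows, with ranges over the libraries left out. In whole organoids, SIX3 ranged from -2.88 to 0.85 (D11 to D28, 0.0228 without D11 A), and GATA2 from -0.91 to 0.42 and LHX9 from -0.46 to 1.52 (D28 to D45). In GABAergic cells from D28 to D45, DLX1 ranged from -0.56 to 1.29 and was 0.0198 with DESeq2, and DLX2 ranged from -0.77 to 1.1. SIX3 from D11 to D28 ranged from -11.66 to 0.49, the lowest without D28 B, which leaves no UMI on D28. Against other neurons GATA3 ranged from -0.0425 to 0.71 and was -0.48 with doublets removed, which also took D28 A out of that fit. For the change of that difference, DLX1 ranged from -1.25 to 0.0667, DLX6 from -1.88 to 0.18 and SIX3 from -10.40 to 0.22 from D11 to D28, and SIX3 from -2.92 to 0.35 from D11 to D45, while DLX1 was 0.49 and 0.10 with doublets removed.

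The replicate letters did not pair the libraries, the deviations of same-lettered libraries correlating at -0.462, 0.120 and -0.294 over 17399 genes. With the replicate block 5, 7 and 0 of the genes were called in whole organoids (D11 to D28, D11 to D45, D28 to D45), where 14.9, 26.5 and 2.83% of all genes were. In GABAergic cells 7, 4 and 2 were called, where 1.66, 3.64 and 0.591% of all genes were, and DLX1 in these cells from D28 to D45 was 0.24. Without the library as a covariate, SIX3 and LHX9 no longer differed past the threshold between GABAergic cells and other neurons (adjusted p 0.391 and 0.096).

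Over all genes, the number called moved by more than 1.5 times with a library left out, from 1112 to 10545, 2804 to 12286 and 0 to 10003 in whole organoids, 122 to 469, 197 to 1212 and 35 to 1671 in GABAergic cells, and 3255 to 6598 against other neurons. The change of that difference was called for 197 to 592 genes from D11 to D28 and 290 to 984 from D11 to D45. DESeq2 called 4353 genes in whole organoids and 49 in GABAergic cells from D28 to D45, in place of 2086 and 508. With at least 10 cells per library, 251 were called in GABAergic cells between these days. Without the library as a covariate 873 genes differed between GABAergic cells and other neurons in place of 6098, and 14 between DLX and GATA cells in place of 146, where DESeq2 called 70 and its size factors in edgeR 257. With the replicate block 3314 were called in whole organoids from D11 to D28 in place of 5131, 628 from D28 to D45, and 85 in GABAergic cells from D28 to D45. With doublets removed, D28 A held 16 GABAergic cells and left the fit of D28 with D45. D11 A held 9 and left the fits with D11. A move in the genes called there cannot be put down to doublets alone. With DESeq2 the change of the difference to other neurons was called for 277 and 445 genes in place of 487 and 677. With no filter on low counts 275 genes were called in GABAergic cells from D11 to D28 in place of 148. The co-detection ratio stayed below 0 on the log2 scale in every setting, from -2.21 to -0.96. The comparison of DLX with GATA cells was not run with doublets removed, with all 3 GABA genes or with a library left out, and the comparisons of GABAergic cells with D11 were not run with all 3 genes, for lack of cells. In each D28 and D45 library TAL1, DLX2 and GATA2 had the fewest UMIs of the 9 genes.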
